A study of Mus musculus with 6 samples.

Results

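The genes described here encode the secreted and membrane-bound guidance cues known as semaphorins, Slits, netrins and ephrins, together with their plexin, Robo, Unc5 and Eph receptors. Membership was set by patterns of gene symbols, which matched 66 of the 19131 genes in the tables. Of these, 62 reached at least 10 estimated counts in at least 3 of the 6 libraries and were followed through the comparison. The 4 others, which were not tested, were Robo3 with at most 1 count in a library, Epha10 with at most 5, Ntn5 with at most 11 and Epha8 with at most 17. The samples were whole skin of mouse embryos at embryonic day 17.5 on the C57BL/6N strain, 3 libraries from Tie1 knockout embryos and 3 from controls. TIE1 is a receptor tyrosine kinase of endothelial cells that works with the angiopoietin receptor TIE2, and the study asks how its loss affects vessel sprouting and vein assembly. The sample titles add the letters ECD to Tie1 in both groups, without explaining them. The series title speaks of endothelial TIE1, but the labels name neither the deleted part of the gene nor the cells that lost it. They also leave out whether each library is its own embryo, so p-values measure only the spread between these samples.

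Guidance molecules were named for steering growing axons, and the same ligands and receptors steer vessels. Semaphorins signal through plexins, often with neuropilins as co-receptors. Slits bind Robo receptors, netrins bind DCC, neogenin and the UNC5 receptors, and ephrins signal to Eph receptors across cell contacts, with ephrin-B2 marking arteries and EphB4 marking veins. In skin these genes are not confined to vessels: keratinocytes, fibroblasts, nerves and hair follicles use them too. In whole-skin RNA, fewer cells of a type and less RNA per cell cannot be told apart.

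The 6 libraries held 19826856 to 20591164 estimated reads, and 15035 genes passed the filter on low counts. Tie1 itself stood at 4.33, 2.63 and 2.26 CPM (reads relative to the library total, scaled by TMM factors) in knockout 1, 2 and 3 and at 50.7 to 60.0 CPM in the controls (edgeR log2 fold change −4.20 with SE 0.23, adjusted p = 0.00387), so the libraries carried the difference their labels name. Skin markers were present in every library, with 7 basal keratinocyte genes summing to 4795 to 8272 CPM and 7 fibroblast genes to 33490 to 39550 CPM. The 7 neuronal markers summed to only 22.7 to 33.8 CPM, with Elavl3 under 10 counts throughout. The 10 pan-endothelial markers summed to 709 to 821 CPM in the knockouts and 668 to 776 CPM in the controls, so the groups overlapped. Of these markers 5 were above 0 and 5 below, none called. Pecam1 and Eng each had a log2 fold change of 0.27, whereas Emcn, Tek and Kdr had −0.52, −0.46 and −0.17. The 7 mural cell markers did not overlap in summed level, with knockout libraries at 693 to 723 CPM and controls at 584 to 678 CPM. Their mean log2 CPM did overlap, at 6.36 to 6.47 and 6.16 to 6.39, and members differed in direction. Pdgfrb, a pericyte receptor, was called higher (edgeR log2 fold change 0.67, adjusted p = 0.0329), whereas Myh11, the myosin of smooth muscle, was lower in all 3 knockout libraries without being called (edgeR log2 fold change −0.82, adjusted p = 0.317), and Acta2 stood at −0.065. By mean log2 CPM the 7 macrophage and mast cell markers overlapped, at 6.85 to 6.92 in knockouts and 6.78 to 7.12 in controls. Their summed level did not, at 1446 to 1496 and 1921 to 2572 CPM. That sum is mostly mast cell protease RNA: Cma1 and Cpa3 had log2 fold changes of −0.77 and −0.79, whereas the macrophage genes Cd68 and Mrc1 had 0.66 and 0.40, none of them called. The mean log2 CPM of 10 tested hair follicle genes was 1.31 in knockout 1 and 1.91 in control 1, against 3.63 to 4.62 in the other 4 libraries. The mean log2 CPM of 8 tested posterior Hox genes, which mark body position, was 2.99, 3.30 and 3.28 in the knockouts and 3.14, 2.42 and 1.99 in the controls, so that control 2 and control 3 stood below the other 4 libraries. Hoxa11 among them was separate and higher in the knockouts without being called (edgeR log2 fold change 2.43, adjusted p = 0.335). With this Hox score as a covariate 5 genes of the whole table were called, and none of the guidance genes. Beyond these covariate fits, the part of cell types and body position in the results below was not tested.

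No guidance gene was called at the adjusted threshold of 0.05 by edgeR's quasi-likelihood test, which called 24 genes (0.16%) of the whole table. All estimated differences were under 2-fold, and the spread between libraries varied from gene to gene. At an unadjusted p under 0.05 there were 11 guidance genes higher and 2 lower in the knockout, or 21% of the 62, against 7.42% of all genes tested (4.08% higher and 3.35% lower). The 11 higher genes were Unc5b, Sema7a, Robo4, Sema3a, Sema6d, Slit3, Efna5, Sema5a, Plxnb2, Efnb2 and Ephb3, and the 2 lower genes were the plexins Plxnc1 and Plxnd1. In all 13 the 3 knockout libraries lay entirely on one side of the 3 control libraries. That is no separate support for them, because the p-values come from the same libraries. Such separation was seen in 17 of the 62 guidance genes (27.4%), 13 higher and 4 lower, against 13.8% of all genes tested (7.04% higher and 6.78% lower). Without control 3 the count was 16 of 62, close to the 24% of all genes separated in those 5 libraries. The members did not shift as a body: 33 were above 0, as were 51.2% of all genes, and 29 below, and their median log2 fold change of 0.035 lay beside 0.0038 over all genes. Fold changes ran from −0.65 for Sema3c to 0.67 for Unc5b. For 53 of the 62 genes the 95% interval of the fold change left out a 2-fold difference in either direction, a share like that of all genes (13036 of 15035).

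**Figure D1:**
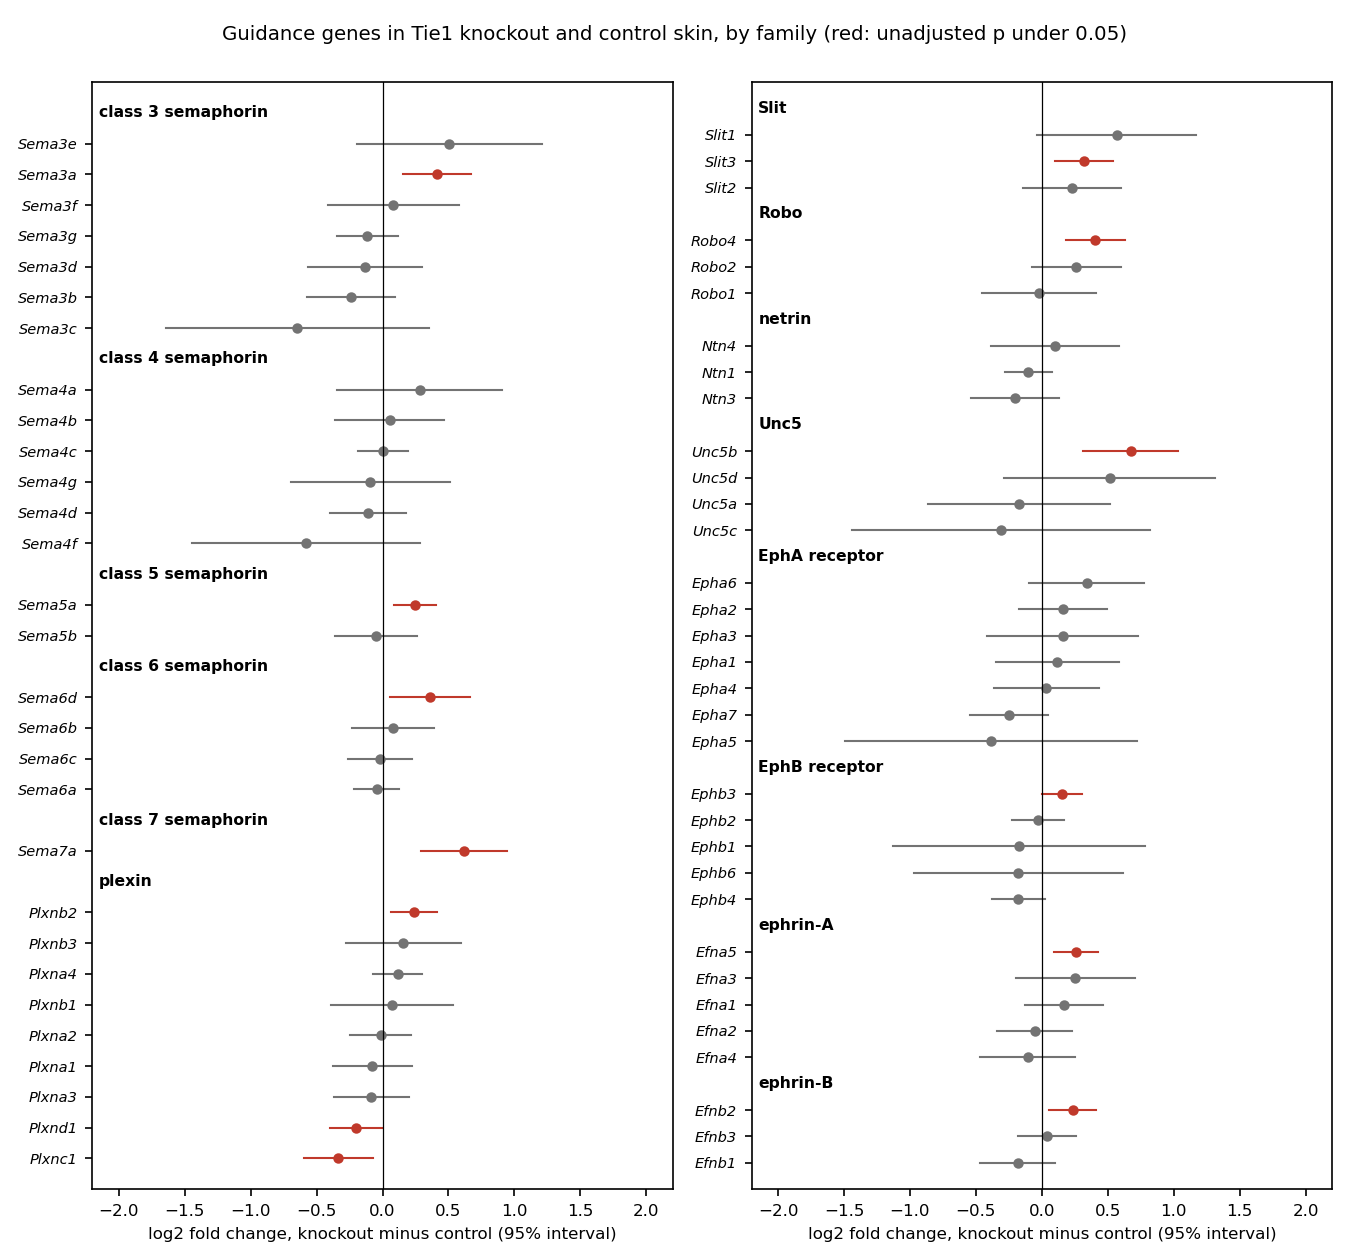
Log2 fold change (knockout minus control) of the 62 guidance genes by family, each with its 95% interval from the edgeR fit; red marks an unadjusted p under 0.05. The red points run from −0.34 for Plxnc1 to 0.67 for Unc5b, and none passed the adjusted threshold.

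DESeq2 called 2 guidance genes, Unc5b and Sema7a, both higher, against 1.4% of all genes called by that tool. The same 2 were called by edgeR with the hair follicle score as a covariate, where 0.772% of all genes were called. When knockout 1 and control 1, the libraries poor in hair follicle genes, were left out together, edgeR called Unc5b, Sema7a and Sema3a, all higher, against 0.923% of all genes. limma-voom called none, against 15 of the 15035 genes tested.

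To show the DNA next to these genes, the 250 bases upstream of the annotated start were read for 3 members (RefSeq, GRCm38.p6, gene strand, 5′ to 3′). They had the smallest p among members with a single window at the edge of the annotated gene and outside all annotated exons. Unc5b is at chr10:60831582-60831831 on the minus strand, Efna5 at chr17:62881318-62881567 on the minus strand and Efnb2 at chr8:8661243-8661492 on the minus strand. Capitals mark ACGTG or GCGTG on either strand, the core of the element that hypoxia-inducible factors bind, with overlapping matches merged.
Unc5b: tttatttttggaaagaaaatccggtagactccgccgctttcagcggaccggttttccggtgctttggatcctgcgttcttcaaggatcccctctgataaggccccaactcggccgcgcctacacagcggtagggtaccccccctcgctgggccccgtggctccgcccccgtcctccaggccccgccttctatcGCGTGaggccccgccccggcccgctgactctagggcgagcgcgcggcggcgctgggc
Efna5: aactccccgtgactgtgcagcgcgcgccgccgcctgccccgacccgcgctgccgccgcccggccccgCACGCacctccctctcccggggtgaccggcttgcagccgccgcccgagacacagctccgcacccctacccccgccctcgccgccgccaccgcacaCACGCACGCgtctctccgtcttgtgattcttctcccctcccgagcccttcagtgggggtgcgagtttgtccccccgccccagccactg
Efnb2: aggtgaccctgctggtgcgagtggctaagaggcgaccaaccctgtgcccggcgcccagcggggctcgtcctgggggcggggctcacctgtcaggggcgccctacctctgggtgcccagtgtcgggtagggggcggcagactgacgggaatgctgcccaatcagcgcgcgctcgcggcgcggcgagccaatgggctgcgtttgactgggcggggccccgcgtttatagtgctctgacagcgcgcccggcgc
All 3 windows were rich in G and C, at 66.8%, 74.8% and 72.0%, with 27, 32 and 27 CpG sites. The motif was found at 1 position for Unc5b, at 3 for Efna5 and at none for Efnb2. Among all windows of 250 bases, with no condition on exons, it was present in 38.6% of 32851 over all genes. It was in 28 of the 69 windows (40.6%) of the 53 tested guidance genes that had one, so guidance genes held it about as often as others. A match describes letters in a window and not a bound site.

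Among netrin receptors, Unc5b had the largest positive fold change of all 62 genes. It encodes UNC5B, a netrin receptor of endothelial tip cells and arteries that also binds ROBO4 (gene 107449, chromosome 10, 60762594 to 60831581). Its level was 65.3, 94.5 and 80.0 CPM in knockout 1, 2 and 3 and 45.2, 47.7 and 57.5 CPM in control 1, 2 and 3. Every knockout library exceeded every control library, and knockout 2 was the highest. The means were 79.9 ± 14.6 and 50.1 ± 6.5 CPM (SD, n = 3 each), a 1.59-fold difference (edgeR log2 fold change 0.67 with SE 0.15, 95% interval 0.31 to 1.03, adjusted p = 0.261, DESeq2 adjusted p = 0.00566). The estimate ran from 0.53 without knockout 2 to 0.80 without knockout 1. The other Unc5 genes were scarce: Unc5a averaged 4.68 ± 1.64 CPM in control skin, Unc5c 1.35 ± 0.612 CPM and Unc5d 0.906 ± 0.225 CPM. Their groups overlapped, with log2 fold changes of −0.17, −0.31 and 0.51 and standard errors of 0.29, 0.48 and 0.34.

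None of the 3 tested netrin ligands had separate groups. Ntn1, the classical netrin that attracts or repels according to the receptor, was at 125, 119 and 126 CPM in the knockouts and 136, 120.0 and 142 CPM in the controls. Control 2 lay inside the knockout range (log2 fold change −0.10, 95% interval −0.28 to 0.076, edgeR adjusted p = 0.806). It was −0.18 without control 2 and −0.058 without control 3. Ntn3 was at 10.5, 7.98 and 9.13 CPM against 11.9, 10.1 and 9.82 CPM, again overlapping (edgeR log2 fold change −0.21 with SE 0.14, adjusted p = 0.783), and the estimate was −0.12 without knockout 2 and −0.11 without control 1. Ntn4, a laminin-binding netrin of vascular basement membrane, was at 5.0, 8.38 and 6.33 CPM against 5.38, 6.49 and 6.52 CPM. Its knockout values enclosed the control values (log2 fold change 0.10, 95% interval −0.38 to 0.58, edgeR adjusted p = 0.935). Of the netrin receptors outside the family, Dcc was under 10 counts in every library and Neo1, the neogenin gene, differed by −0.088 on the log2 scale (edgeR SE 0.13, adjusted p = 0.903).

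In the Slit and Robo families, Robo4 and Slit3 were the separated genes with an unadjusted p under 0.05. Robo4 is the Robo of endothelium, known for keeping vessels stable (gene 74144, chromosome 9, 37401902 to 37414023). It was at 45.9, 40.2 and 46.8 CPM in the knockout libraries and 35.7, 34.6 and 30.1 CPM in the control libraries. The lowest knockout library stood above the highest control library, with means of 44.3 ± 3.60 and 33.5 ± 2.96 CPM (SD, n = 3 each; edgeR log2 fold change 0.40 with SE 0.096, 95% interval 0.18 to 0.63, adjusted p = 0.271, DESeq2 adjusted p = 0.0765). Slit3, a secreted Slit made by fibroblasts and smooth muscle, was at 76.6, 86.2 and 90.6 CPM against 63.3, 64.4 and 75.1 CPM. Knockout 1 exceeded control 3 by a small margin, and the groups did not overlap (edgeR log2 fold change 0.32 with SE 0.094, adjusted p = 0.430).

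All 3 Slit genes had a positive fold change. Slit2 was at 37.0, 46.9 and 54.8 CPM against 34.0, 40.7 and 43.5 CPM, with overlapping groups (edgeR log2 fold change 0.23 with SE 0.16, adjusted p = 0.785), and the estimate was 0.089 without knockout 3 and 0.37 without knockout 1. Slit1 was scarce, at 2.10 ± 0.211 CPM in the knockouts and 1.42 ± 0.397 CPM in the controls (log2 fold change 0.57, 95% interval −0.038 to 1.17). Its groups were separate only through scaling. Knockout 2 and control 1 both held 38 counts, or 1.88 and 1.87 CPM. Robo1, the Slit receptor of many cell types, was at 87.3, 111 and 116 CPM against 80.7, 116 and 122 CPM. Replicate 1 was the lowest library in both groups, and the difference between groups was −0.019 (log2, 95% interval −0.45 to 0.41, edgeR adjusted p = 0.988). Robo2 was at 120.5 ± 22.2 CPM against 100.5 ± 9.41 CPM with overlapping groups (log2 fold change 0.26, edgeR adjusted p = 0.730).

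**Figure D2:**
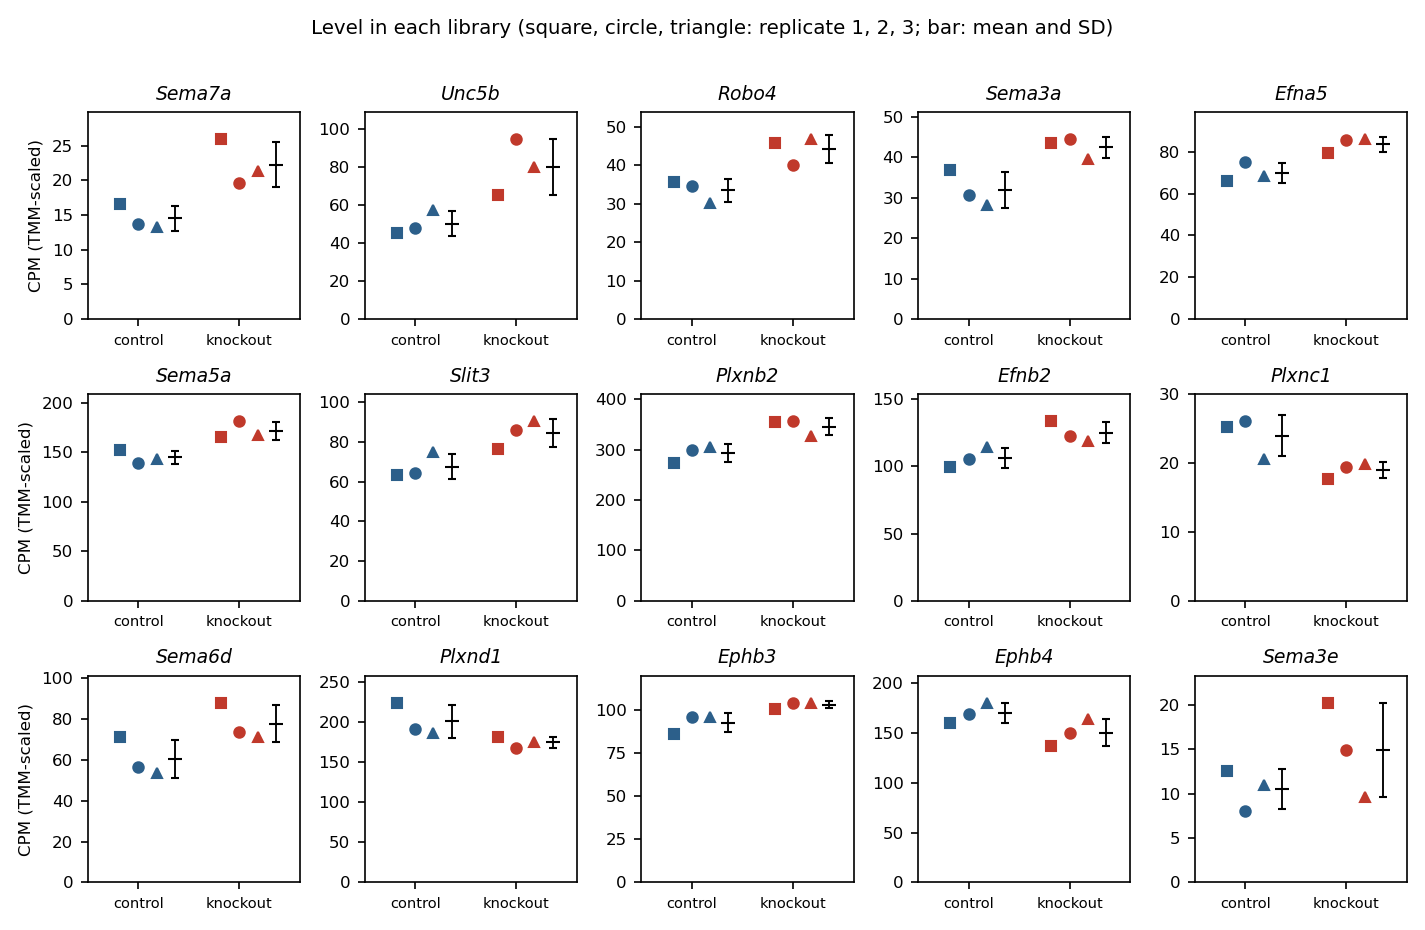
TMM-scaled CPM in each of the 6 libraries for the 13 genes with an unadjusted p under 0.05 and for Ephb4 and Sema3e; squares, circles and triangles are replicates 1, 2 and 3, bars the mean and SD. In the first 13 panels the groups do not overlap, while in Ephb4 and Sema3e they do.

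Semaphorins made up 20 of the tested genes, of which 10 lay on each side of 0. The 4 with an unadjusted p under 0.05 were all higher. These 4 of 20 stood beside 21% of all 62 guidance genes and 7.42% of all genes tested. Sema7a had the smallest p of all 62 genes. It encodes a semaphorin anchored to the membrane by a lipid that signals through plexin C1 and β1 integrins (gene 20361, chromosome 9, 57939596 to 57962865). Its level was 25.9, 19.6 and 21.3 CPM in the knockouts and 16.6, 13.7 and 13.3 CPM in the controls. Replicate 1 was the highest in each group, and every knockout library was above every control library. The means were 22.3 ± 3.26 and 14.5 ± 1.81 CPM (SD, n = 3 each; edgeR log2 fold change 0.62 with SE 0.14, 95% interval 0.29 to 0.94, adjusted p = 0.238, DESeq2 adjusted p = 0.0253).

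Its receptor gene Plxnc1 (gene 54712, chromosome 10, 94790866 to 94945015) went the other way. It was at 17.7, 19.5 and 19.8 CPM in the knockouts and 25.3, 26.1 and 20.6 CPM in the controls. Control 3 came close to the knockout range without entering it (edgeR log2 fold change −0.34 with SE 0.11, 95% interval −0.60 to −0.073, adjusted p = 0.519). Plexin C1 is known from immune cells, whose markers went both ways. The mast cell genes Cma1, Cpa3 and Kit had log2 fold changes of −0.77, −0.79 and −0.28. The macrophage genes Cd68, Mrc1, Csf1r and Adgre1 had 0.66, 0.40, 0.22 and 0.13. The part of these cells in the Plxnc1 difference was not tested.

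Among class 3 semaphorins, which are secreted, Sema3a was the gene with an unadjusted p under 0.05. Sema3a encodes a repellent for axons and endothelial cells that acts through neuropilin-1 and class A plexins. It was at 43.4, 44.4 and 39.5 CPM in the knockouts and 36.8, 30.7 and 28.1 CPM in the controls, with no overlap (edgeR log2 fold change 0.41 with SE 0.11, adjusted p = 0.364). With the posterior Hox score as a covariate the estimate was 0.22, and without control 1 it was 0.53. Sema3e, the ligand of plexin D1 that repels sprouts, was at 20.3, 15.0 and 9.62 CPM against 12.5, 8.02 and 11.0 CPM. The spread within the knockout was wide and the groups overlapped (edgeR log2 fold change 0.51 with SE 0.29, 95% interval −0.20 to 1.21, adjusted p = 0.747), and the estimate was 0.22 without knockout 1 and 0.34 without control 2.

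Sema3f, a neuropilin-2 ligand, was at 164, 184 and 169 CPM against 111, 188 and 190.0 CPM, so that control 1 alone stood low (log2 fold change 0.083, 95% interval −0.41 to 0.58, edgeR adjusted p = 0.947). Without control 1 the value was −0.13, and with the Hox score it was 0.55. Sema3g, a semaphorin of arterial endothelium, was at 15.5, 16.5 and 18.2 CPM against 17.2, 17.9 and 19.3 CPM, overlapping (log2 fold change −0.11, 95% interval −0.34 to 0.11, edgeR adjusted p = 0.827), with estimates from −0.063 without knockout 1 to −0.18 without knockout 3. Sema3c had the lowest fold change of all members and also one of the widest spreads. Its libraries were at 86.5, 57.1 and 46.3 CPM against 152, 56.8 and 88.8 CPM, with control 1 far above the rest (log2 fold change −0.65, 95% interval −1.65 to 0.35). Sema3b and Sema3d had log2 fold changes of −0.24 and −0.13 with overlapping groups.

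The transmembrane semaphorins held 2 more separated genes with an unadjusted p under 0.05. Sema5a, whose product carries thrombospondin repeats, was at 166, 181 and 167 CPM in the knockouts and 152, 139 and 144 CPM in the controls (edgeR log2 fold change 0.24 with SE 0.068, 95% interval 0.084 to 0.40, adjusted p = 0.395). Sema6d, a ligand of class A plexins, was at 88.0, 73.8 and 71.3 CPM against 71.0, 56.6 and 53.9 CPM. Knockout 3 lay barely above control 1, and replicate 1 was highest in both groups (edgeR log2 fold change 0.36 with SE 0.13, adjusted p = 0.552), and the estimate was 0.20 with the Hox score. Sema5b, Sema6a, Sema6b and Sema6c had log2 fold changes between −0.046 and 0.078. In class 4, whose members act mainly through class B plexins, none of 6 genes had an unadjusted p under 0.05. The smallest p there belonged to Sema4f, a gene with 6 to 17 counts per library, at 0.464, 0.297 and 0.589 CPM in knockout against 0.839, 0.594 and 0.592 CPM in control libraries. Knockout 3 and control 3 were almost equal there (log2 fold change −0.58, 95% interval −1.44 to 0.29, edgeR adjusted p = 0.768), and the estimate was −0.36 without knockout 2.

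Of 9 plexin genes, 4 were above 0 and 5 below, and all 9 intervals lay within a 2-fold difference. Plxnb2, the class 4 semaphorin receptor with the highest level per length of the plexins, was at 354, 357 and 326 CPM in the knockouts and 274, 300.1 and 306 CPM in the controls. The groups did not overlap (edgeR log2 fold change 0.24 with SE 0.074, adjusted p = 0.458). Plxnd1, the endothelial receptor of Sema3e, was at 181, 167 and 175 CPM against 224, 191 and 187 CPM, all 3 knockout libraries below all 3 controls. Control 1 was the highest library. The log2 fold change was −0.20 (SE 0.085, 95% interval −0.40 to −0.0023, edgeR adjusted p = 0.667), and −0.11 without that library and −0.33 with the Hox score as a covariate. The neuropilin genes, co-receptors outside the symbol rule, had log2 fold changes of 0.097 for Nrp1 (SE 0.12) and −0.17 for Nrp2 (SE 0.14), with edgeR adjusted p = 0.887 and 0.823.

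Ephrins and Eph receptors also differed little. Efnb2, the arterial ephrin, was at 134, 122 and 119 CPM in the knockouts and 99.2, 106 and 114 CPM in the controls. The knockout range began above the highest control (edgeR log2 fold change 0.23 with SE 0.077, 95% interval 0.052 to 0.41, adjusted p = 0.517), and the estimate was 0.13 without knockout 1 and control 1 and 0.37 with the Hox score. Its venous receptor Ephb4 was at 136, 149.7 and 164 CPM against 159.8, 169 and 180.1 CPM. Here knockout 3 lay above control 1, so the groups overlapped (edgeR log2 fold change −0.18 with SE 0.085, 95% interval −0.38 to 0.021, adjusted p = 0.688), and the estimate was −0.12 without knockout 1. Ephb3, an ephrin-B receptor of epithelia, was at 101, 104 and 104 CPM against 86.4, 96.0 and 96.4 CPM (edgeR log2 fold change 0.15 with SE 0.065, adjusted p = 0.668), and 0.24 with the Hox score. The 3 knockout libraries were nearly equal and above all controls. Ephb1, Ephb2 and Ephb6 and the ligand genes Efnb1 and Efnb3 had log2 fold changes from −0.18 to 0.037, with overlapping groups.

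On the A side, Efna5, a lipid-anchored ephrin, was at 79.4, 85.5 and 86.0 CPM in the knockouts and 66.1, 75.2 and 68.5 CPM in the controls. Its groups were separate (edgeR log2 fold change 0.26 with SE 0.072, 95% interval 0.089 to 0.43, adjusted p = 0.395). Efna1, the endothelial ephrin-A, was at 41.9, 51.9 and 45.8 CPM against 35.1, 42.2 and 47.0 CPM, overlapping (edgeR log2 fold change 0.17 with SE 0.13, adjusted p = 0.808), and the estimate was 0.060 without control 1, 0.079 without knockout 2 and 0.26 without control 3. Its main receptor Epha2 was at 36.0, 33.3 and 36.5 CPM against 25.0, 32.6 and 37.3 CPM, where control 1 was the low library (log2 fold change 0.16, 95% interval −0.17 to 0.49, edgeR adjusted p = 0.831). The estimate was 0.014 without control 1, 0.29 without control 3 and 0.50 with the Hox score. Epha7 had the smallest p of the EphA receptors, at 6.19, 6.74 and 5.89 CPM against 8.04, 7.28 and 7.06 CPM. It was separated and lower (edgeR log2 fold change −0.25 with SE 0.13, adjusted p = 0.706). The other 5 EphA genes ran from −0.39 for Epha5 to 0.34 for Epha6, and Efna2, Efna3 and Efna4 from −0.11 to 0.25, none with an unadjusted p under 0.05.

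The 10 members commonly described in endothelium, Plxnd1, Unc5b, Robo4, Ephb4, Efnb2, Sema3g, Sema6a, Efna1, Robo1 and Sema3f, divided evenly. There were 5 above 0 and 5 below with a median of 0.032, and 3 (Unc5b, Robo4 and Efnb2) were higher and 1 (Plxnd1) lower at an unadjusted p under 0.05. Their opposite directions stood beside pan-endothelial markers whose summed level overlapped between the groups. Among the 10 tested pan-endothelial markers, 2 were higher and 1 lower at that threshold, with a median of −0.065. The share at that threshold was 21% over all 62 guidance genes and 7.42% over all genes tested.

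**Figure D3:**
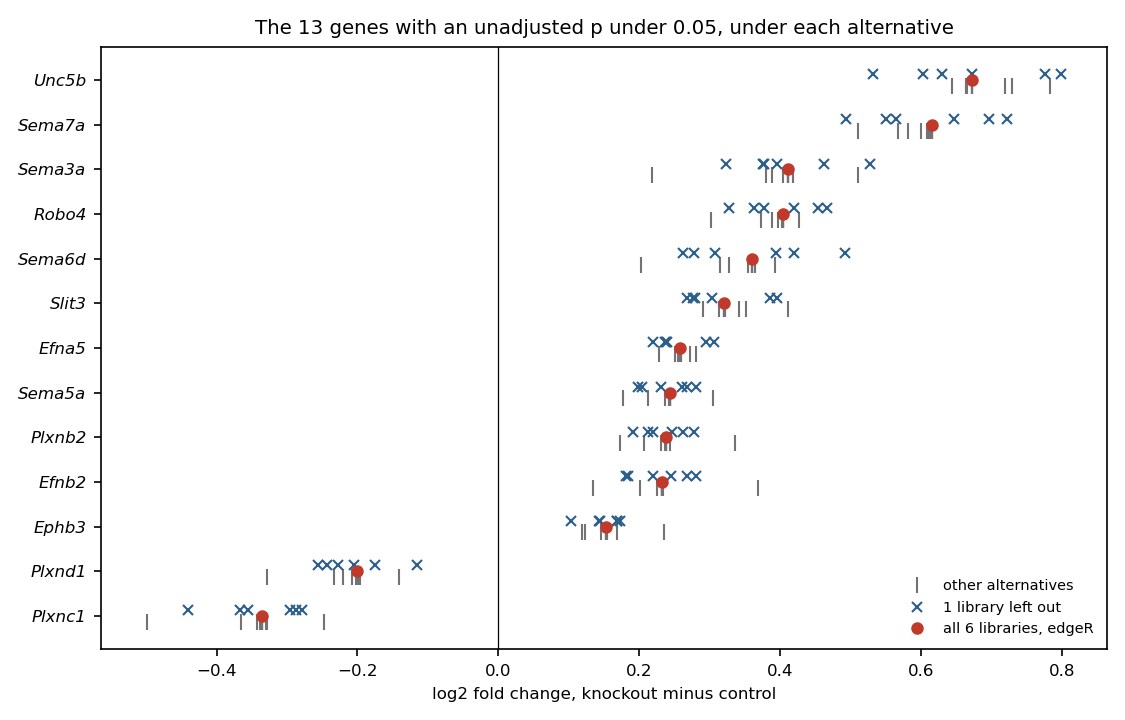
Log2 fold change (knockout minus control) of the 13 genes with an unadjusted p under 0.05: red circles are the edgeR fit of all 6 libraries, blue crosses the fits with 1 library left out, grey ticks the other alternatives. All 13 stayed on the same side of 0 in all 18 alternatives, with Plxnd1 coming as close as −0.11 and Ephb3 as 0.10. That is no separate support, because the 13 were picked from these same libraries. Their groups do not overlap, so leaving libraries out could hardly turn their direction.

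Dividing by exonic length (GENCODE M21) allowed levels to be compared between genes, as CPM per kb of exon. The length takes in every annotated exon of a gene, used in skin or not, so long annotations lower the level. In control skin Plxnb2 at 38.0 ± 2.2, Ephb4 at 36.6 ± 2.19, Sema3f at 31.3 ± 8.67, Efnb1 at 28.8 ± 4.77, Plxnd1 at 27.5 ± 2.79 and Efna3 at 27.1 ± 4.94 were the highest (SD, n = 3), and each lay within the larger SD of its neighbour in this order. Ntn1 at 21.1 ± 1.78 exceeded Ntn3 and Ntn4, at 2.08 ± 0.227 and 1.64 ± 0.174, and Slit3 at 11.1 ± 1.07 exceeded Slit2 at 1.55 ± 0.192. The counted length was 6067 bases for Slit3 and 25433 for Slit2, whose control means were 67.6 and 39.4 CPM before scaling. The 3 tested Robo genes were level in control skin on this scale, between 5.92 and 6.43. Their lengths were 16511, 16983 and 5302 bases for Robo1, Robo2 and Robo4, with unscaled means of 106, 100 and 33.5 CPM. In the knockout Robo4 averaged 8.35 ± 0.678, Robo2 7.09 ± 1.31 and Robo1 6.35 ± 0.931, so Robo4 exceeded Robo2 by less than the SD of Robo2. Unc5b was the leading Unc5 gene in both groups, at 8.01 ± 1.04 in control and 12.8 ± 2.33 in knockout skin. Exons shared with another gene took 14.1% of the exonic length of Efna3 and 10.7% of that of Plxna1, so these levels are less certain.

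**Figure D4:**
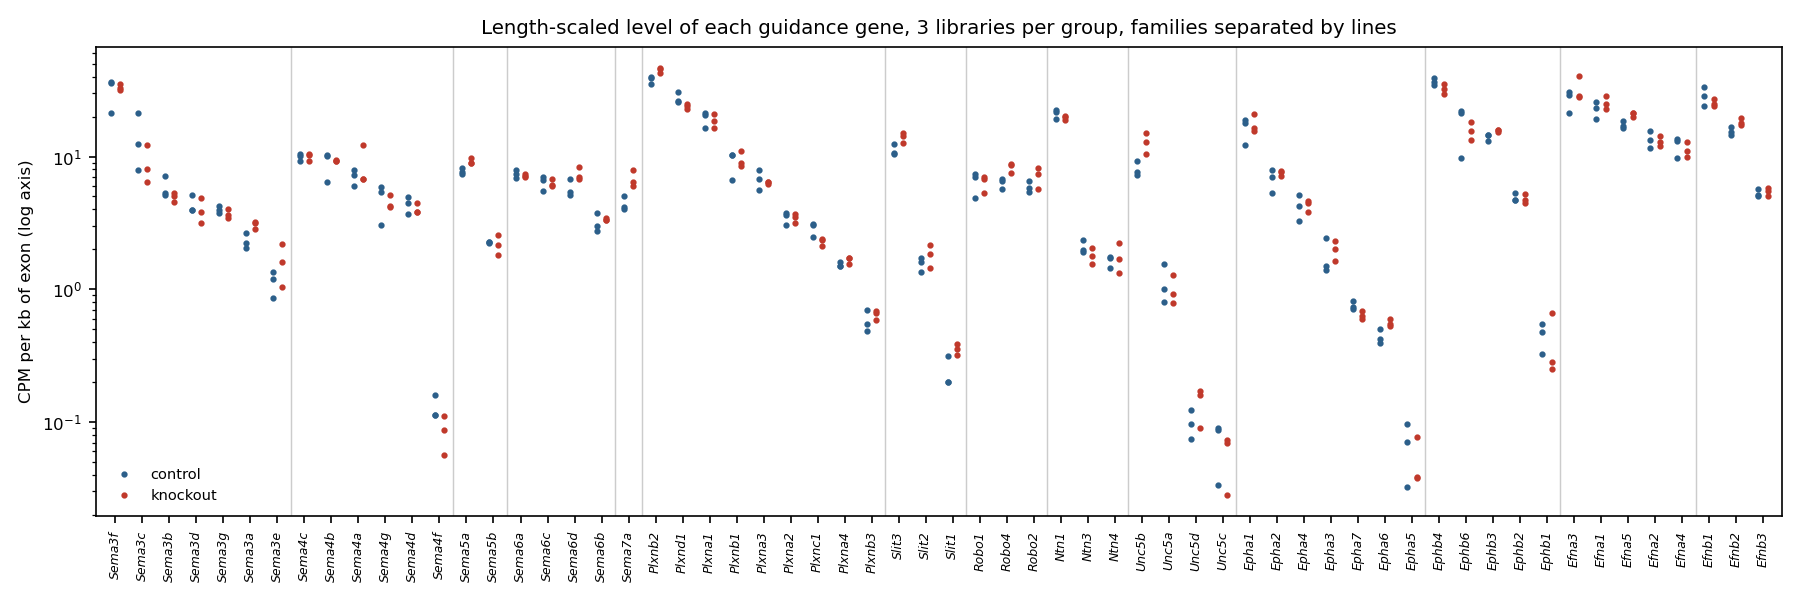
Level of each of the 62 guidance genes as TMM-scaled CPM per kb of exon (log axis), 3 control libraries in blue and 3 knockout libraries in red, grouped by family. Plxnb2, Ephb4 and Sema3f lie near the top and Unc5c, Unc5d and Epha5 near the bottom in both colours.

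Partners and effectors outside the symbol rule were counted for comparison. Of 16 co-receptors and extracellular partners, 15 were tested and none was called by edgeR, with a median log2 fold change of 0.0060. Ptk7, a co-receptor kinase that also serves planar cell polarity, was the 1 with an unadjusted p under 0.05 (edgeR log2 fold change 0.24 with SE 0.079, adjusted p = 0.506). Of 35 intracellular effectors, none was called, with a median of 0.034. At an unadjusted p under 0.05 there were Dpysl5, a collapsin response mediator, at 0.23 (SE 0.091) and Chn2, a chimaerin that inactivates Rac, at −0.36 (SE 0.13), with edgeR adjusted p = 0.639 and 0.544. All 35 intervals lay within a 2-fold difference. With 1 of 15 and 2 of 35 at that threshold, both lists were close to the 7.42% of all genes.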

How the data were processed

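Bulk RNA-seq of 6 skin libraries was used. The authors deposited 1 estimated count per gene and library, with no normalization, per the file headers and values. Tools listed in the submitters' processing notes, without roles, are RSEM 1.2.12, HISAT2 2.0.4 and Bowtie2 2.2.5, with build GRCm38.p6. The sources used here do not say whether counting used strand. Counts were rounded, filtered with filterByExpr (minimum count 10), scaled by TMM and compared by the robust quasi-likelihood test of edgeR 4.0.16 (R 4.3.3), genotype only, with Benjamini-Hochberg adjustment over all 15035 genes. DESeq2 1.42.0, limma 3.58.1 (voom) and 16 other alternatives were run. SE is the absolute log2 fold change over the square root of F. Intervals are 95%. Named genes were every member with an unadjusted p under 0.05, the smallest p of each family, and members with vessel roles. The members and lists were chosen with earlier results of these data known. RefSeq promoter windows matched 57 of 66 members.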

Additional observations from a re-analysis of the deposited data

How the results depend on the processing

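Whole-table calls, 24 by edgeR with all libraries, were 38 without a filter, 15 with limma-voom, 211 with DESeq2, 139 without knockout 1 and control 1 together, 5 with the posterior Hox score and 116 with the hair follicle score. With 1 library left out they were 1 to 11. Guidance genes called, 0 with all libraries, were 2 with DESeq2, 3 without knockout 1 and control 1 together, 2 with the hair follicle score, and 0 in each of the other 15 alternatives, those with 1 library left out included. Guidance genes with separate groups numbered 17 of 62, against 13.8% of all genes tested. With all 6 libraries they were 15 with RLE scaling, 14 with upper-quartile scaling and 15 without a filter. All genes stood at 13.8%, 14.3% and 12.7% in these 3 settings. Without knockout 1 and control 1 together they were 39 of 62, a larger share than the 42.1% of all genes. With 1 library left out they were 16 to 30 of 62, against 20.4% to 27.9% of all genes. The 30 of 62 came without control 1, where all genes stood at 27.9%. The 16 of 62 came without knockout 2 and without control 3, where all genes stood at 20.4% and 24%. Shares rise for all genes in such fits, since fewer libraries overlap less. The median log2 fold change of the guidance genes, 0.035 with all libraries, was 0.0051 with upper-quartile scaling. It was −0.037 without knockout 1 and control 1 together, 0.15 with the Hox score and 0.060 with the hair follicle score. With 1 library left out it ran from −0.0067 to 0.082. The cause was not tested.

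Of 26 named genes 22 kept their direction in all alternatives. Among the 22 are the 13 with an unadjusted p under 0.05, whose separate groups left little room for a change. Epha2 ran from −0.0016 without knockout 1 and control 1 together to 0.50 with the Hox score. Ntn4 ran from −0.12 without knockout 2 to 0.26 without knockout 1. Sema3f ran from −0.13 without control 1 to 0.55 with the Hox score. It was 0.20 without control 3 and −0.097 without knockout 1 and control 1 together. Robo1 was −0.18 without control 1, 0.097, 0.042 and 0.083 without knockout 1, control 2 and control 3, 0.28 with the Hox score and 0.061 with the hair follicle score. Under the replicate block 52 genes were called, 22 of them among the 24, and 0 guidance genes. Deviations of libraries with the same number correlated at 0.41, 0.043 and 0.27. The control of the same number was the best match for knockout 1 and knockout 3, whereas knockout 2 correlated better with control 3 (0.18). The labels do not say what a number marks, so the numbers were not taken as pairs in the main fit. The genes Sema4f, Unc5c, Unc5d and Epha5 rest on few counts, and Sema4f gave no value under the filter of 1 CPM.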

Other observations

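The median coefficient of variation of the 62 guidance genes was 14.3% among controls and 9.24% among knockouts. Control 1 was the lowest control for 34 genes and the highest for 24. Among genes averaging at least 10 CPM in controls, the widest gaps between libraries of a group were in Sema3c, with a highest-to-lowest ratio of 2.67 among controls, and in Ephb6, which encodes an Eph receptor without kinase activity, with a ratio of 2.29. Ephb6 was at 36.6 CPM in control 1 against 81.0 and 83.8 CPM in control 2 and control 3. In the knockout Sema4a, a class 4 semaphorin, stood at 66.4 CPM in knockout 1 and 36.5 and 36.8 CPM in knockout 2 and knockout 3.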
